A study of Mus musculus with 27 samples.

Results

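Chil1, Myoc, Slc24a4, Adra2a and Bbox1 are 5 of the 54532 genes in the deposited read count table of a mouse glia study. They were picked because their transcript levels fell in several settings when bryostatin was added, so the 4 bryostatin comparisons below describe them and carry no test. Bryostatin-1, a marine natural product, acts on protein kinase C at the site of its lipid activator diacylglycerol. RNA sequencing was done on 27 libraries of mixed glia, grown for 14 days from the cortex of C57BL/6 mice aged 3 to 6 days after birth and then treated for 24 h.

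The libraries formed 9 groups of 3 in 2 experiments. Experiment 1 held untreated glia and glia given 100 ng/mL lipopolysaccharide (LPS, from the outer membrane of bacteria, which sets off inflammation), LPS with 50 nM bryostatin, LPS with 20 ng/mL interferon gamma (IFN-gamma), or all 3 agents. Experiment 2 held its own untreated glia and glia given 50 nM bryostatin, 20 ng/mL interleukin 4 (IL-4, a cytokine of repair and allergy), or IL-4 with bryostatin. The labels call the controls untreated and name no vehicle, and no group carries a genetic change. The labels do not say that replicates came from separate cultures or litters, so the p-values reflect only how far these libraries spread, and that spread could be technical.

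The genes differ in what their products do. Chil1 and Myoc encode secreted proteins, a chitin-binding relative of the chitinases that astrocytes make in inflamed brain, and myocilin, an olfactomedin-domain glycoprotein best known from the outflow tissue of the eye. Slc24a4 encodes a potassium-dependent sodium/calcium exchanger that moves calcium out of cells. Adra2a encodes an inhibitory receptor for noradrenaline, the transmitter to which astrocytes respond during arousal. Bbox1 encodes gamma-butyrobetaine hydroxylase, the enzyme of the last step in making carnitine, which carries fatty acids into mitochondria.

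In the deposited annotation (mm10), Chil1 (ENSMUSG00000064246) lies on chromosome 1 from 134182176 to 134190181 and Myoc (ENSMUSG00000026697) on the same chromosome from 162639155 to 162649693. Slc24a4 (ENSMUSG00000041771) spans 102128733 to 102267091 of chromosome 12, and Adra2a (ENSMUSG00000033717) spans 54045182 to 54048982 of chromosome 19. These 4 genes are on the plus strand. Bbox1 (ENSMUSG00000041660) is on the minus strand of chromosome 2, from 110262697 to 110314560. The libraries did not keep strand, so reads of overlapping genes on the other strand cannot be told apart. Those neighbours had few reads, with 0 to 2 counts for Myocos over Myoc and 0 to 7 counts for the antisense gene Gm16339 over Slc24a4.

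The stretch before the start site is shown for the pair of genes with the lowest mean fold change among genes called lower in all 4 bryostatin comparisons (Myoc and Slc24a4) and for the gene that LPS raised most among the 5 (Chil1). Each run is the 250 bases before the RefSeq start on build GRCm38.p6, on the plus strand, written 5′ to 3′, with the letters of a TATA box in capitals. The runs are chr1:162638900-162639149, chr12:102128477-102128726 and chr1:134181906-134182155.
Myoc: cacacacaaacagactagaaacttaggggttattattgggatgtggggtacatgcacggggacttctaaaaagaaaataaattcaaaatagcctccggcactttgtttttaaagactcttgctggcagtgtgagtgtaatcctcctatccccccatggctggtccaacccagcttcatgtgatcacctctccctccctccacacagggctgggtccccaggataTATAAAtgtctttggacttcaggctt
Slc24a4: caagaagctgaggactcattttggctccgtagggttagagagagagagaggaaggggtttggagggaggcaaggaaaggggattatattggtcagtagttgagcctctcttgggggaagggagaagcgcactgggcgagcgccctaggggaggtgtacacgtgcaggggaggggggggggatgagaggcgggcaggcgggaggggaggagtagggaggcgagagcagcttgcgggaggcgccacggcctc
Chil1: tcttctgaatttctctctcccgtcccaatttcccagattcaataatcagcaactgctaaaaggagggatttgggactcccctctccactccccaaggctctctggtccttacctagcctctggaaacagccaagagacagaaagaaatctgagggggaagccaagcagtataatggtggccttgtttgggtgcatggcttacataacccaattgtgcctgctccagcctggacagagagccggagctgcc

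Motifs were searched on both strands of such windows of all 5 genes. The TATA box (TATAAA) was found 26 bases before the Myoc start, 29 bases before the Adra2a start, and on the other strand 209 bases before the Bbox1 start. It occurs in 12.4% of 32851 promoter windows of the same length. The Adra2a window is not printed because it lies within an exon of that gene in another annotation, and the RefSeq start of Bbox1 lies inside the gene's deposited span. The letters of the AP-1 motif (TGANTCA, in 6.75% of windows), the CRE (TGACGTCA, 1.55%), the GAS motif (TTCNNNGAA, 7.02%) and the NFI motif (TTGGCA, 12.3%) were in none of the 5 windows. A match, or the lack of one, describes only these letters.

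Total counts ran from 17230058 to 28687281 per library. All 5 genes passed the filter on low counts in both experiments, among 16073 genes tested in experiment 1 and 15604 in experiment 2. Levels are counts per 1e+06 counts of a library (CPM) scaled within each experiment, and changes are log2 fold changes with their standard error (SE) from edgeR's quasi-likelihood fit. A gene was called at a Benjamini-Hochberg adjusted p under 0.05. By summed level the 16 astrocyte markers stood highest, at 5216 to 19608 CPM, and the 6 endothelial markers lowest, at 27.8 to 128 CPM. The lists differ in length and in how abundant their genes are, so these sums do not give shares of cells.

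Untreated libraries labelled replicate 1 stood apart from the rest of their group in each experiment. Sox10, which encodes an oligodendrocyte lineage factor, was at 0.161, 33.4 and 30.1 CPM in untreated replicates 1, 2 and 3 of experiment 1. In experiment 2 it was at 39.0, 0.281 and 0.228 CPM. Sox10 was at 0.0354 to 0.482 CPM in all other libraries of experiment 2 and at 30.6 to 34.4 CPM in the LPS libraries. Each untreated library labelled replicate 1 thus had a Sox10 level like those of the other experiment. Across genes, which are not independent replicates, log2 CPM of untreated replicate 1 of experiment 1 had a Pearson r of 0.963 and 0.965 with the other untreated libraries of its own experiment and of 0.991 with untreated replicates 2 and 3 of experiment 2. For untreated replicate 1 of experiment 2 these values were 0.958 and 0.950 with its own experiment and 0.981 and 0.974 with untreated replicates 2 and 3 of experiment 1. Both libraries therefore go against the experiment on their labels, and whether the 2 were exchanged was not tested. The labels were kept, and the comparisons of the 5 genes with untreated glia are also given without both libraries.

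**Figure D1:**
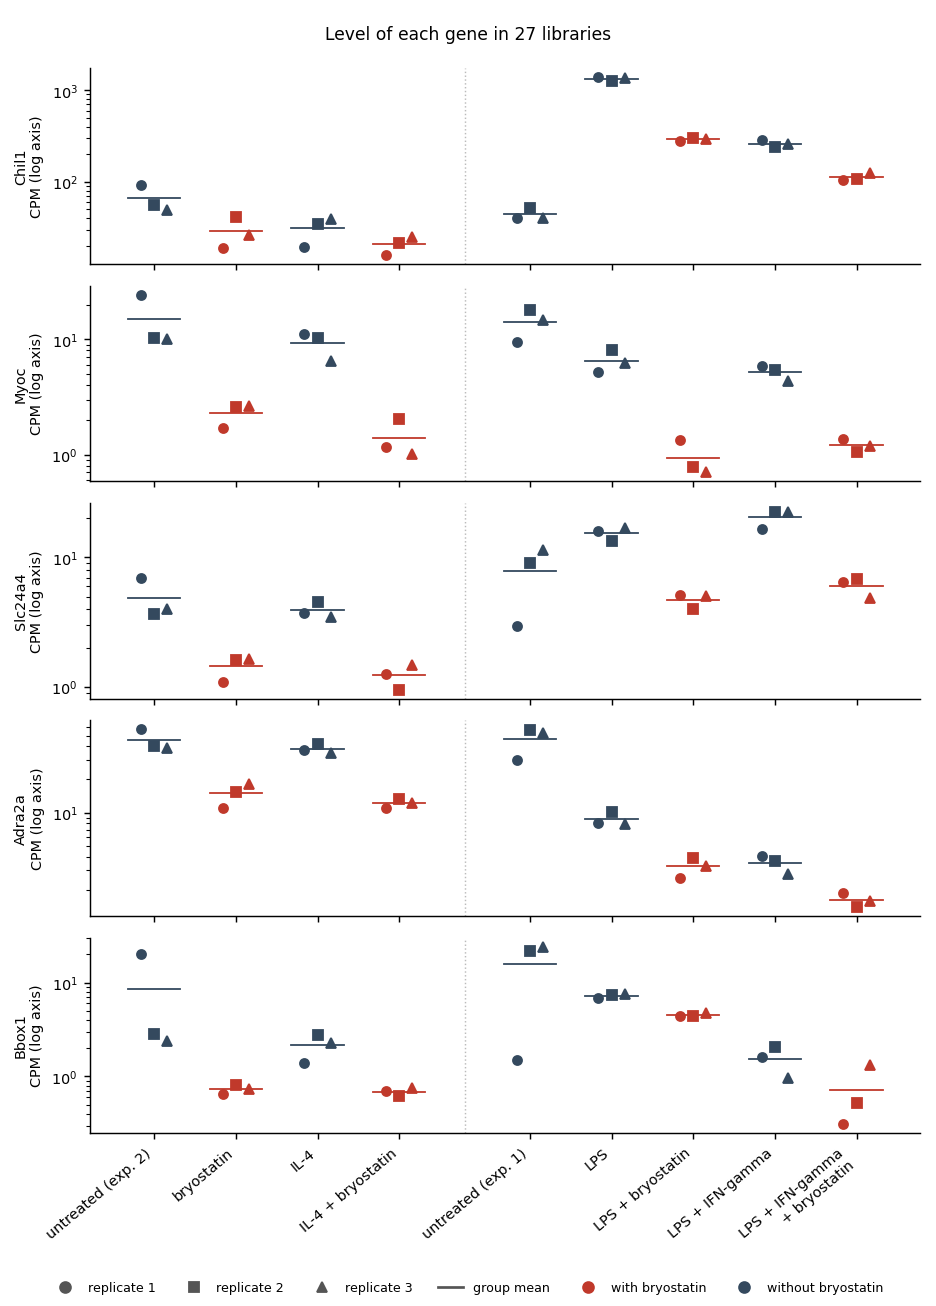
Level of each gene in CPM (log axis) in the 27 libraries, with experiment 2 on the left and experiment 1 on the right of the dotted line. Points are libraries, shapes are replicate numbers, bars are group means and red marks bryostatin; Chil1 reaches 1274 to 1384 CPM with LPS, and the untreated replicate 1 libraries stand apart for Bbox1.

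Bryostatin-treated groups had lower means of all 5 genes than their controls in all 4 settings. Genes called lower made up 1.51% of those tested with bryostatin alone, 1.42% with bryostatin added to IL-4, 3.55% added to LPS and 1.58% added to LPS and IFN-gamma. Genes called higher made up 2.11%, 2.7%, 3.35% and 1.8% in the same order. Of the 5 genes, 4, 3, 4 and 4 were called lower. Since these comparisons chose the genes, nothing is read from these counts. The share of all genes whose groups did not overlap was not computed. Statements below on overlap of the 5 genes therefore only describe the libraries. In bulk RNA, fewer cells of a type and less RNA per cell cannot be told apart.

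In all, 31 of the 15243 genes tested in both experiments were called lower in all 4 comparisons, or 0.203%. Myoc came first among the 31 by mean log2 fold change (-2.58), followed by Slc24a4 (-1.71), Col9a1, a cartilage collagen chain (-1.61), Adra2a (-1.44) and Aldh1a7, an aldehyde dehydrogenase (-1.27). Chil1 (mean log2 fold change -1.30) was called lower in 2 of the 4 and Bbox1 (-1.74) in 1 of them. The set was named genes lowered by bryostatin across settings after these same comparisons, so the calls describe the set and do not test its name. Myoc, Slc24a4 and Adra2a were called lower in every setting, whereas Chil1 and Bbox1 had lower group means in every setting but fewer calls. When both untreated replicate 1 libraries were left out, 71 genes were called lower in all 4, of which 27 were among the 31, and Bbox1 was called in 3 comparisons.

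Myoc, the myocilin gene, had the lowest levels relative to control in 3 of the 4 settings. In experiment 2 its level was 24.3, 10.3 and 9.96 CPM in the untreated libraries and 1.68, 2.59 and 2.63 CPM with bryostatin. With IL-4 it was 11.1, 10.2 and 6.42 CPM, against 1.17, 2.02 and 1.01 CPM with IL-4 and bryostatin. All 6 bryostatin libraries lay below all 6 libraries without it. The mean level with bryostatin was 15.5% of untreated (log2 fold change -2.69 ± 0.40, SE) and 15.1% of IL-4 alone (-2.74 ± 0.42). The former was -2.16 without both untreated replicate 1 libraries.

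In experiment 1, Myoc stood at 5.17, 8.07 and 6.22 CPM with LPS and at 1.34, 0.775 and 0.702 CPM with LPS and bryostatin. With LPS and IFN-gamma it was at 5.81, 5.36 and 4.33 CPM, against 1.36, 1.05 and 1.20 CPM once bryostatin was added. Neither pair of groups overlapped. The mean with bryostatin was 14.5% of LPS alone (log2 fold change -2.78 ± 0.30) and 23.3% of LPS and IFN-gamma (-2.10 ± 0.30). The lowest group means of Myoc, 0.940 and 1.20 CPM, were in the LPS groups with bryostatin, which overlapped each other.

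Slc24a4, the calcium exchanger gene, had group means of 29.6% to 31.8% of control. Its levels were 7.01, 3.66 and 3.98 CPM in untreated glia of experiment 2 and 1.09, 1.62 and 1.66 CPM with bryostatin. They were 3.71, 4.50 and 3.50 CPM with IL-4 and 1.27, 0.956 and 1.49 CPM with IL-4 and bryostatin. None of these bryostatin libraries reached the lowest library without bryostatin. The mean level was 29.8% of untreated (log2 fold change -1.75 ± 0.30) and 31.8% of IL-4 alone (-1.65 ± 0.30). The former was -1.41 ± 0.25 without both untreated replicate 1 libraries.

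LPS libraries held Slc24a4 at 16, 13.3 and 16.9 CPM, and LPS with bryostatin at 5.11, 4.03 and 5.08 CPM. With LPS and IFN-gamma the values were 16.5, 22.3 and 22.4 CPM, and 6.43, 6.82 and 4.86 CPM after bryostatin. The groups did not overlap in either pair. Bryostatin libraries averaged 30.8% of LPS alone (log2 fold change -1.70 ± 0.34) and 29.6% of LPS and IFN-gamma (-1.75 ± 0.33).

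Adra2a, the noradrenaline receptor gene, was at 57, 40.3 and 38.5 CPM in untreated glia of experiment 2 and at 11.1, 15.4 and 18.3 CPM with bryostatin. With IL-4 its level was 36.8, 42.2 and 35.1 CPM, and with IL-4 and bryostatin 11.1, 13.2 and 12.3 CPM. All 6 libraries with bryostatin were below all 6 without it. The means were 33.0% of untreated (log2 fold change -1.60 ± 0.20) and 32.1% of IL-4 alone (-1.64 ± 0.20). Leaving out both untreated replicate 1 libraries gave -1.42 ± 0.17 for the former.

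Adra2a levels were far lower in the LPS groups, at 8.03, 10.2 and 7.86 CPM with LPS and at 2.58, 3.93 and 3.29 CPM with LPS and bryostatin. LPS with IFN-gamma gave 4.07, 3.62 and 2.80 CPM, and the addition of bryostatin gave 1.86, 1.40 and 1.60 CPM. Again no bryostatin library overlapped its control group. The means were 37.6% of LPS (log2 fold change -1.41 ± 0.23) and 46.3% of LPS and IFN-gamma (-1.11 ± 0.29). LPS with bryostatin and LPS with IFN-gamma overlapped each other in level.

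Chil1, the chitinase-like gene, ran from 21.8% to 66.7% of its control over the 4 settings. LPS libraries held 1384, 1274 and 1361 CPM, and LPS with bryostatin held 280.1, 301.8 and 293.3 CPM. LPS with IFN-gamma gave 283.1, 238.6 and 257.0 CPM, and with bryostatin 104.1, 107.3 and 125.0 CPM. Replicates lay close together in all these groups, and neither bryostatin group overlapped its control. The mean was 21.8% of LPS alone (log2 fold change -2.20 ± 0.10) and 43.2% of LPS and IFN-gamma (-1.21 ± 0.10). LPS with bryostatin and LPS with IFN-gamma overlapped in level.

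In experiment 2, Chil1 was at 93.3, 55.3 and 49.3 CPM in untreated glia and at 18.8, 41.5 and 26.0 CPM with bryostatin. With IL-4 it was at 19.4, 34.3 and 39.3 CPM, and with IL-4 and bryostatin at 15.8, 21.4 and 24.8 CPM. Bryostatin alone did not overlap its control, whereas IL-4 with bryostatin did. The log2 fold changes were -1.20 ± 0.35 and -0.59 ± 0.35, at 43.6% and 66.7% of control. The former was -0.88 without both untreated replicate 1 libraries.

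Bbox1, the carnitine synthesis gene, was the least even between replicates. Its levels were 20.3, 2.81 and 2.39 CPM in untreated glia of experiment 2 and 0.652, 0.810 and 0.742 CPM with bryostatin. The high value is untreated replicate 1. The groups did not overlap, and the log2 fold change of -3.52 ± 0.76 became -1.83 ± 0.31 without both untreated replicate 1 libraries. With IL-4 the level was 1.40, 2.79 and 2.29 CPM, and with IL-4 and bryostatin 0.707, 0.619 and 0.746 CPM, again without overlap (log2 fold change -1.63 ± 0.76).

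LPS libraries had Bbox1 at 6.82, 7.45 and 7.53 CPM, and LPS with bryostatin at 4.41, 4.39 and 4.70 CPM. These groups were tight and apart, at 61.9% of control (log2 fold change -0.69 ± 0.64). LPS with IFN-gamma gave 1.61, 2.06 and 0.955 CPM, and 0.309, 0.524 and 1.33 CPM with bryostatin, which rest on 5, 9 and 20 counts. The last groups overlapped, and the log2 fold change was -1.12 ± 0.95. The SE of Bbox1 in the fit of all 15 libraries of experiment 1 includes the spread of its untreated group, and the SE for LPS was 0.21 without both untreated replicate 1 libraries, at the same log2 fold change of -0.69.

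**Figure D2:**
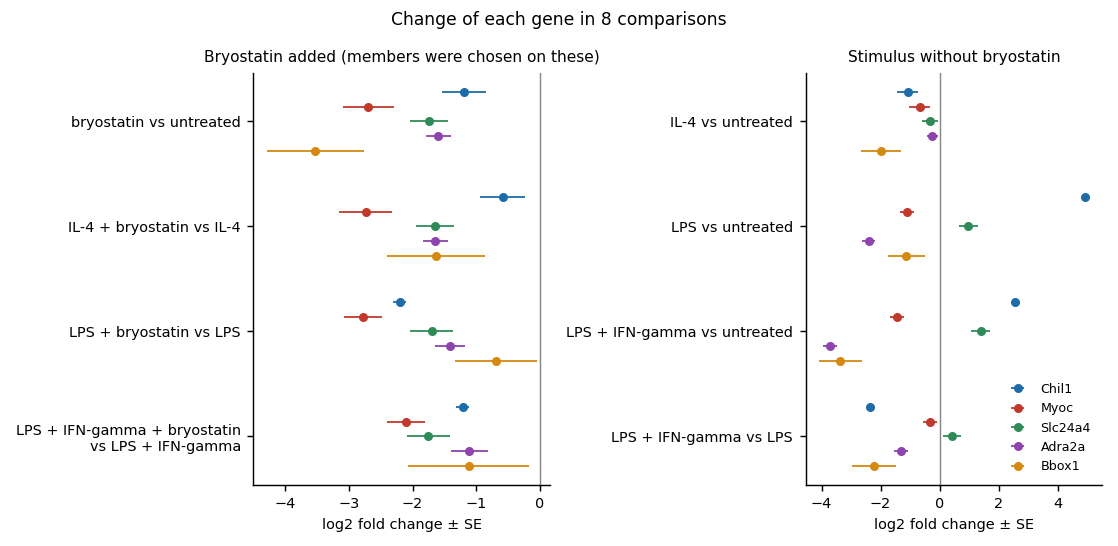
Log2 fold change with its SE (bars) of each gene when bryostatin was added (left, the comparisons the genes were chosen on) and with each stimulus without bryostatin (right). All estimates on the left lie below 0, from -3.52 to -0.59, while on the right Chil1 and Slc24a4 lie above 0 with LPS.

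The stimuli moved the same 5 genes in different directions. These comparisons were not used to pick the genes and are tested, although they share untreated, IL-4, LPS or LPS and IFN-gamma libraries with the bryostatin comparisons, and the LPS comparisons share libraries with each other. With LPS, 2 of the 5 genes rose, where 19.5% of genes tested were called higher, and 2 fell, where 18.8% were called lower. With LPS and IFN-gamma against untreated, 2 rose (29.5% of genes called higher) and 3 fell (28.6% called lower). With IFN-gamma added to LPS, 3 fell (16.8% of genes called lower, 19.2% higher). These shares of all genes are large, so that a call among the 5 is common under LPS.

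Chil1 rose from 40.1, 51.4 and 40.7 CPM in untreated glia of experiment 1 to the LPS levels above. The change was 30.4-fold (log2 fold change 4.93 ± 0.12, adjusted p = 3.28e-14, edgeR). With LPS and IFN-gamma it was 5.89-fold (2.56 ± 0.11, adjusted p = 6.5e-12). These log2 fold changes were 4.87 and 2.50, both called, without both untreated replicate 1 libraries. Adding IFN-gamma to LPS lowered Chil1 to 19.4% of LPS alone (-2.37 ± 0.11, adjusted p = 9.12e-11). In order of level, LPS stood first, LPS with bryostatin and LPS with IFN-gamma overlapped, LPS and IFN-gamma with bryostatin came next, and untreated glia were lowest, with no overlap.

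Slc24a4 rose with LPS from 2.95, 9.03 and 11.4 CPM in untreated glia of experiment 1, where replicate 1 is the low value. The groups did not overlap (log2 fold change 0.97 ± 0.32, adjusted p = 0.0278, edgeR). This call was lost when LPS replicate 1 (adjusted p = 0.0728) or LPS replicate 3 (adjusted p = 0.0868) was left out. Without both untreated replicate 1 libraries the log2 fold change was 0.59 and the adjusted p was 0.00988. The rise with LPS and IFN-gamma was 1.38 ± 0.32 (adjusted p = 0.00214), or 1.00 without those libraries. IFN-gamma added to LPS gave 0.41 ± 0.31, which was not called (adjusted p = 0.337) but was without both (adjusted p = 0.0327). In level, both LPS groups with bryostatin overlapped the untreated group, which reaches down to them only through its replicate 1.

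Myoc fell with LPS from 9.43, 18.1 and 14.6 CPM in untreated glia of experiment 1 to 46.1% of that level (log2 fold change -1.11 ± 0.24, adjusted p = 0.00152, edgeR). With LPS and IFN-gamma the change was -1.44 ± 0.25 (adjusted p = 0.000109). They were -1.33 and -1.66, again called, without both untreated replicate 1 libraries. LPS and LPS with IFN-gamma overlapped (-0.33 ± 0.25, adjusted p = 0.331).

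Adra2a fell further. It stood at 30.3, 55.8 and 52.7 CPM in untreated glia of experiment 1, and LPS brought it to 18.8% of that (log2 fold change -2.41 ± 0.21, adjusted p = 1.47e-07, edgeR). LPS with IFN-gamma brought it to 7.55% (-3.73 ± 0.23, adjusted p = 1.23e-09). The values were -2.63 and -3.95 without both untreated replicate 1 libraries, and both stayed called. The step from LPS to LPS with IFN-gamma was -1.32 ± 0.24 (adjusted p = 0.000415). No neighbouring groups overlapped in this order.

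Bbox1 in untreated glia of experiment 1 was at 1.50, 21.9 and 24.2 CPM, with replicate 1 far below the others. LPS libraries lay between these values, and the change was not called (log2 fold change -1.13 ± 0.61, adjusted p = 0.169, edgeR). It was -1.66 ± 0.20 (adjusted p = 1.77e-06) without both untreated replicate 1 libraries. LPS with IFN-gamma lowered Bbox1 by 3.36 on the log2 scale (adjusted p = 0.00132), although untreated replicate 1 fell within the treated range, and by 3.89 without both (adjusted p = 9.96e-11). From LPS to LPS with IFN-gamma the change was -2.23 ± 0.73 (adjusted p = 0.0296). That call was lost when any one of the 6 LPS or LPS with IFN-gamma libraries was left out (adjusted p from 0.0529 to 0.104), while without both untreated replicate 1 libraries the adjusted p was 7.36e-07.

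IL-4 alone left the 5 genes without a call in edgeR, where 0.5% of genes were called higher and 0.0833% lower. Of the 5, 2 had an unadjusted p under 0.05, Chil1 (log2 fold change -1.09 ± 0.35, adjusted p = 0.387) and Bbox1 (-1.98 ± 0.68, adjusted p = 0.432). DESeq2 called 0 of the 4 genes to which it gave an adjusted p. Without both untreated replicate 1 libraries Bbox1 was at -0.27 and Chil1 at -0.76, neither called. The estimates of Myoc (-0.69), Slc24a4 (-0.32) and Adra2a (-0.25) rest on groups that overlapped, and were -0.13, 0.031 and -0.051 without both untreated replicate 1 libraries.

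Relative to gene length, Chil1 was the most abundant of the 5 in all 9 groups, by the deposited FPKM values, which are scaled to gene length. Its mean ran from 7.07 ± 1.57 FPKM (SD, n = 3) with IL-4 and bryostatin to 490.8 ± 22.2 FPKM with LPS. Adra2a was second in untreated glia of both experiments (12.7 ± 3.92 and 11.3 ± 2.35 FPKM) and in the other groups of experiment 2. Slc24a4 was second in the 4 groups with LPS, at 4.63 ± 0.783 FPKM with LPS and IFN-gamma. Bbox1 was lowest in 6 of the 9 groups, with 0.150 ± 0.0143 FPKM in IL-4 with bryostatin.

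Each gene belongs to a family or pathway whose other genes were followed in the same fits. The lists, like the genes, were drawn up with earlier results of these data known, so their counts describe them. Over the 4 bryostatin comparisons, chitinase-like and chitin-binding genes with their receptors had no call in 22 gene tests, against 3 with an unadjusted p under 0.05 and 0 calls by DESeq2. Calcium exporters had none in 38 tests (6 with an unadjusted p under 0.05, 0 by DESeq2), and adrenergic receptors and noradrenaline-handling genes none in 40 (10 with an unadjusted p under 0.05, 2 by DESeq2). The carnitine list had 2 calls in 48 tests. The olfactomedin list had 3 higher and 8 lower in 44. Median log2 fold changes of these lists lay between -0.38 and 0.28, and those of all genes between -0.01 and 0.01.

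Leaving out both untreated replicate 1 libraries changed several of these calls. The calcium exporters then had 4 calls, all lower, for Slc24a3 with LPS (-0.48) and with LPS and IFN-gamma (-0.52), and for Slc8a2 (-0.74) and Slc8a3 (-0.79) with LPS. Slc24a3 encodes another potassium-dependent exchanger, and Slc8a2 and Slc8a3 encode sodium/calcium exchangers that use no potassium. Noradrenaline genes had 5 higher and 2 lower, with Adrb1, a stimulatory receptor, higher in 3 settings (0.44 with bryostatin alone) and Maob, a monoamine oxidase, lower with LPS (-0.96). The chitinase-like list had 1 call, Chil4 (higher with IL-4 and bryostatin), and the carnitine list had 4 higher and 5 lower. Chil4 did not pass the filter on low counts in the fit of all libraries. Its mean was 0.578 CPM with IL-4 and bryostatin and 0.0543 CPM with IL-4, with no reads in untreated glia or with bryostatin alone. It was thus near the floor outside the group where it was called higher, and nothing is read from that call.

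Olfml1, a secreted olfactomedin-domain protein, was the one listed relative called lower in all 4 bryostatin comparisons. Its log2 fold changes were -0.56 ± 0.11 with bryostatin alone (adjusted p = 0.0197, edgeR) and -0.46 ± 0.11 with IL-4 (adjusted p = 0.0367). With LPS it was -0.49 ± 0.13 (adjusted p = 0.0371) and with LPS and IFN-gamma -0.72 ± 0.14 (adjusted p = 0.00817). Its changes were smaller than those of Myoc in each setting, but Myoc was picked for its falls, so nothing is read from this. Olfm4, a secreted glycoprotein, fell with LPS and bryostatin (-2.0 ± 0.23) and with LPS, IFN-gamma and bryostatin (-1.46 ± 0.26). Olfm2 fell in the same settings (-0.57 and -0.78), while Gldn, which encodes gliomedin, rose (0.75 and 0.85). Adgrl3, a latrophilin receptor with an olfactomedin domain, rose with LPS and bryostatin (0.91 ± 0.17). In the carnitine list, Slc22a5, the carnitine importer, fell with IL-4 and bryostatin (-0.54 ± 0.13), and Cpt1c rose slightly with LPS and bryostatin (0.26 ± 0.07).

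**Figure D3:**
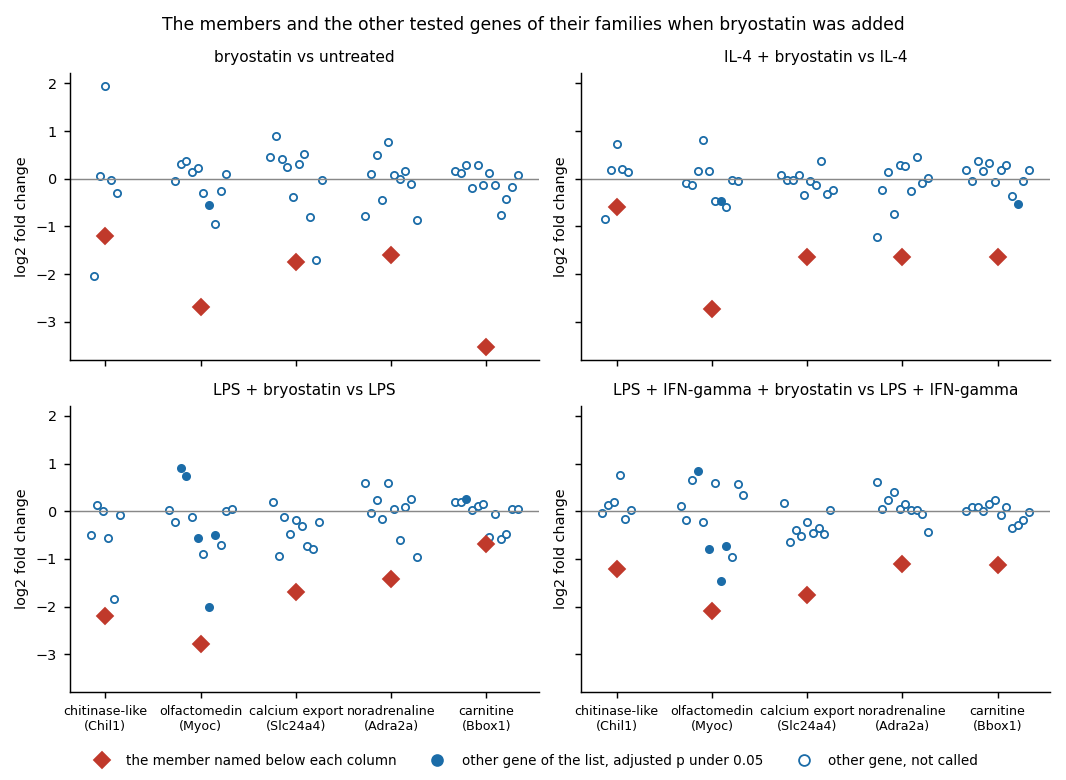
Log2 fold change when bryostatin was added, for each of the 5 genes (red diamonds) and the other tested genes of its list (circles, filled where called), in 4 panels by setting. The diamonds lie at -0.59 or lower in every panel, and most filled circles are in the olfactomedin column.

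With LPS alone, 4 of the 5 lists had calls in both directions, where 19.5% of all genes tested were called higher and 18.8% lower. With shares this large, nothing is read from that count. Olfm4 rose 5.35 ± 0.31 on the log2 scale with LPS and fell 1.44 from LPS to LPS with IFN-gamma. Il13ra2, a receptor for interleukin 13 and Chil1 protein, rose with LPS (5.63 ± 0.43) and was lower with IFN-gamma added (-2.0 ± 0.31). In untreated glia of experiment 1 mean levels were 0.344 CPM for Olfm4 and 0.114 CPM for Il13ra2. Both were thus near the floor there and passed the filter through the groups with LPS. Nothing is read from their calls against untreated glia. Chil3, a chitinase-like gene of IL-4-treated macrophages, was called higher with IL-4 in edgeR. It had no reads in untreated glia of experiment 2 and 19.9 ± 11.7 CPM (SD, n = 3) with IL-4. As it passed the filter only through the groups with IL-4, nothing is read from that call. Chia1, an acidic chitinase, fell with LPS (-1.93 ± 0.62).

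Among noradrenaline genes, Adra2c, another inhibitory receptor, fell with LPS (-2.71 ± 0.56), as did Adrb1 (-0.93 ± 0.24), while Maob rose (1.70 ± 0.35). LPS lowered 4 and raised 2 of the 10 tested genes of this list. Of 9 calcium exporters, 2 fell with LPS, with Atp2b2, a plasma membrane calcium pump, at -2.56 ± 0.54. Adra2c (0.284 CPM) and Atp2b2 (0.380 CPM) were near the floor with LPS, which limits these estimates. Of 12 carnitine genes, 2 rose and 5 fell. Since LPS raised 19.5% and lowered 18.8% of all genes tested, nothing is read from these counts. Crot, a peroxisomal acyltransferase, rose with LPS (0.56 ± 0.06) and with LPS and IFN-gamma (1.98 ± 0.07), whereas Aldh9a1, an enzyme upstream of Bbox1 in carnitine synthesis, fell with LPS (-0.75 ± 0.08). The family genes named with LPS against untreated glia were called in the same direction without both untreated replicate 1 libraries, where Adrb1 was at -0.44.

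More astrocyte markers fell than rose when bryostatin was added, in the comparisons on which the 5 genes were chosen. Of 16 markers, 8, 6, 7 and 6 fell and 1 rose in each of the comparisons of bryostatin alone and with IL-4, LPS, and LPS and IFN-gamma. Their median log2 fold changes were -0.65, -0.46, -0.58 and -0.46. Aqp4, the astrocyte water channel, fell in all 4 (-0.95, -1.10, -0.78 and -1.28), whereas Aldh1l1, a folate enzyme used to mark astrocytes, rose in 3 (0.54, 0.72 and 0.47). The summed astrocyte level was 14606 to 19608 CPM in untreated glia of experiment 2 and 10094 to 11955 CPM with bryostatin, and with IL-4 it was 13722 to 14382 CPM against 9944 to 10977 CPM. With LPS it was 10066 to 10642 CPM against 7860 to 8227 CPM, and with LPS and IFN-gamma 7225 to 7779 CPM against 5216 to 5226 CPM. Gfap, a marker on this list, was the largest part of these sums. Its mean was 10369 CPM in untreated glia of experiment 2 and 6520 CPM with bryostatin. No marker of this list was at 0 in any library. The part of these shifts in the changes of the 5 genes was not tested. Without both untreated replicate 1 libraries, 5, 9, 9 and 11 markers were called lower. The 5 genes did not all move with these markers under the stimuli. With LPS against untreated glia 9 markers fell and 2 rose (18.8% of all genes called lower, 19.5% higher). With LPS and IFN-gamma 13 fell and 1 rose (28.6% and 29.5%). Chil1 and Slc24a4 rose in both comparisons.

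Markers of other cell types also moved. Of 12 microglia markers, 5 fell with LPS and bryostatin, among them Cx3cr1, the fractalkine receptor (log2 fold change -1.37 ± 0.11, SE), and 3 with LPS, IFN-gamma and bryostatin. With IL-4 and bryostatin 1 fell, again Cx3cr1 (-0.59 ± 0.13). Itgam, an integrin chain on the same list, rose with bryostatin alone (1.27 ± 0.14) and with IL-4 (1.39 ± 0.14). Microglia markers summed to 1886 to 2367 CPM in untreated glia of experiment 2 against 1815 to 2688 CPM with bryostatin, and to 1514 to 2133 CPM with IL-4 against 2137 to 2678 CPM with IL-4 and bryostatin. The sum was 1014 to 1108 CPM with LPS against 739.0 to 827.9 CPM with bryostatin added, and 745.6 to 855.5 CPM with LPS and IFN-gamma against 590.6 to 755.1 CPM. The microglia sum thus lay narrowly above its control with IL-4, below it with LPS, and overlapped it in the other settings. The part of these cells in the result was not tested.

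Of the 12 oligodendrocyte lineage markers, Cspg4, the NG2 proteoglycan of progenitors, rose when bryostatin was added to LPS (log2 fold change 0.89 ± 0.14) and to LPS and IFN-gamma (1.04 ± 0.14). The summed level was 826.3 to 1180 CPM in untreated glia of experiment 2 against 902.2 to 1079 CPM with bryostatin, and 736.1 to 762.7 CPM with LPS against 712.1 to 770.0 CPM. It was higher and apart from its control with IL-4 (735.6 to 793.5 against 843.7 to 1012 CPM) and, narrowly, with LPS and IFN-gamma (381.4 to 428.4 against 428.5 to 437.7 CPM). Sox10 stood at 8.0 to 10.3 CPM with LPS and bryostatin, against the LPS values above, and Gpr17, a receptor of maturing progenitors, at 1.56 to 2.01 CPM against 5.17 to 5.57 CPM. Neither was called in the fit of all libraries (adjusted p = 0.178 and 0.245, edgeR), and both were called lower without both untreated replicate 1 libraries (-1.85 and -1.57).

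Single neuron markers were called higher in 3 settings, Tubb3, a neuronal tubulin, with IL-4 (0.80 ± 0.17) and with LPS (0.83 ± 0.09), and Gad1, an enzyme of GABA synthesis, with LPS and IFN-gamma (1.18 ± 0.26). Over the 4 comparisons DESeq2 called 7 higher and 0 lower, and edgeR without both untreated replicate 1 libraries 8 and 0. The sum of the 7 markers was 189.3 to 209.1 CPM in untreated glia of experiment 2 against 211.3 to 275.3 CPM with bryostatin, 172.4 to 190.6 against 204.9 to 236.4 CPM with IL-4, and 146.0 to 157.1 against 201.2 to 223.5 CPM with LPS. With LPS and IFN-gamma the ranges overlapped, at 269.1 to 312.2 against 308.7 to 354.0 CPM. The neuron sum was thus higher with bryostatin, and apart from its control, in 3 of the 4 settings. Most of it came from Tubb3 and Stmn2, with means of 53.0 and 140.6 CPM in untreated glia of experiment 2. Tubb3, Stmn2 and Slc17a7 had higher means with bryostatin in every setting, while Syt1 and Gad1 were mixed. Snap25, at means of 1.91 CPM or less, was lower in every setting. Rbfox3, at means of 0.361 CPM or less, was lower in every setting except LPS. The part of these cells in the changes of the 5 genes was not tested.

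Ependymal markers were high and low in the same untreated libraries as Bbox1. Sox10, Myoc, Slc24a4 and Adra2a shared this pattern, so it was not particular to Bbox1 and these markers. Foxj1, the master factor of motile cilia, was at 188.4, 485.4 and 469.2 CPM in untreated glia of experiment 1 and at 539.4, 197.5 and 192.2 CPM in experiment 2, high and low in the same libraries as Bbox1. The sum of the 5 ependymal markers was 210.9 to 582.0 CPM in the former group and 214.3 to 683.6 CPM in the latter. With bryostatin alone the median log2 fold change of the 4 tested markers was -1.78, with no call in edgeR though all 4 had an unadjusted p under 0.05 and DESeq2 called 5 markers lower, and it was -0.74 without both untreated replicate 1 libraries. With IL-4 the sum was 201.9 to 240.6 CPM against 134.8 to 160.4 CPM with bryostatin, with LPS 433.2 to 455.2 against 388.2 to 411.8 CPM, and with LPS and IFN-gamma 395.6 to 466.4 against 315.1 to 346.2 CPM. With bryostatin alone it was 131.9 to 202.5 CPM, so that the sum was lower and apart from its control in all 4 settings. Under LPS this came mostly from Rarres2, a chemerin gene, with a mean of 40.7 CPM with bryostatin against 81.3 CPM. Foxj1, the largest part of the sum, had means of 346.8 against 346.1 CPM there. Under LPS, where Bbox1 was also apart from its control, the markers differed. Rarres2 was called lower with bryostatin (-1.0 ± 0.22, adjusted p = 0.0131, edgeR). Its mean was 24.4 CPM in untreated glia of experiment 1 and 166.8 CPM with LPS and IFN-gamma, whereas the other listed markers had lower means with both stimuli. Ccdc153 was at 5.41 to 6.93 CPM without and 2.69 to 2.89 CPM with bryostatin, and Tmem212 at 0.385 to 0.617 against 0.0540 to 0.215 CPM, neither called. Foxj1 overlapped, at 335.1 to 353.1 against 337.1 to 359.0 CPM, as did Dynlrb2, at 9.08 to 10.2 against 7.67 to 9.503 CPM. At most 1 of the 5 ependymal markers was at 0 in a library of IL-4 with bryostatin or of bryostatin alone. The part of these cells in the Bbox1 result was not tested.

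**Figure D4:**
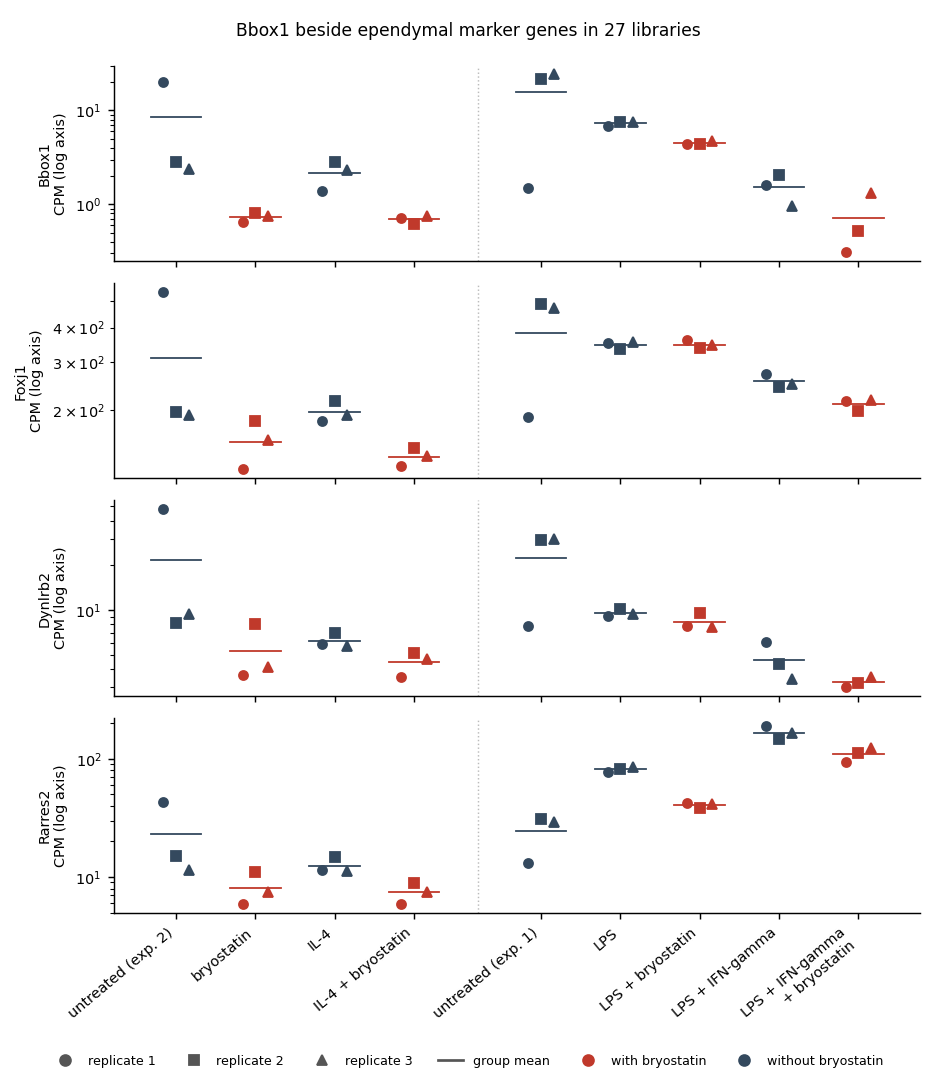
Level in CPM (log axis) of Bbox1 and of 3 ependymal markers in the 27 libraries, drawn as in the plot of the 5 genes. Bbox1, Foxj1 and Dynlrb2 share the low untreated replicate 1 in experiment 1 and the high one in experiment 2, while with LPS the bryostatin libraries overlap their controls for Foxj1 and lie below them for Rarres2 (38.6 to 42.1 against 76.8 to 85.2 CPM).

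The genes most like each of the 5 were sought among 13373 protein-coding genes by the root mean square difference of group-mean log2 CPM over the 9 groups, after removal of each gene's mean within an experiment. Bbox1 had the closest neighbours, Fam216b (0.23 log2 units), Frmpd2 (0.24) and Ccdc153 (0.28), the last of which is also on the ependymal list. Adra2a was nearest to Myb, a transcription factor gene (0.26), then Aldh1a7 (0.34) and Cmtm5 (0.37). Slc24a4 was nearest to Enpp2, the gene of the lysophosphatidic acid enzyme autotaxin (0.33), then Ip6k3 (0.38) and Dscaml1 (0.39). Chil1 was nearest to Olfm4 (0.48), then Anxa8 (0.55) and Prr16 (0.56). Myoc was nearest to Ntsr2, a neurotensin receptor gene on the astrocyte list (0.49), then Cmtm5 (0.53) and Cnmd (0.58). For scale, the 5 genes themselves varied over the groups with a root mean square of 0.81 to 1.39 log2 units.

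These neighbours were chosen by their values, so their levels are a description. Olfm4 went from 0.344 CPM in untreated glia of experiment 1 to 14.5 CPM with LPS and 3.63 CPM with LPS and bryostatin. Enpp2 stood at 65.1 CPM with LPS against 26.9 CPM with LPS and bryostatin, and at 13.5 CPM with IL-4 against 3.08 CPM with IL-4 and bryostatin. Fam216b fell from 21.2 CPM with LPS to 15.1 CPM with LPS and bryostatin. Without both untreated replicate 1 libraries, 7 of the 15 named neighbours were found again, among them Ntsr2 for Myoc, Enpp2 for Slc24a4, and Fam216b and Frmpd2 for Bbox1. Ccdc153, the neighbour of Bbox1 on the ependymal list, was not found again.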

How the data were processed

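Mixed glia RNA was sequenced as unstranded libraries of polyadenylated RNA, per the labels' protocols. The submitters' processing notes name fastp, STAR, featureCounts and the build mm10, and tool versions are not stated there. The authors deposited read counts per gene (whole numbers, not normalized), on which all tests rest, and FPKM values (reads scaled to gene length and library total), used only to compare levels between genes. Groups were taken from the labels.

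Tests used edgeR 4.0.16 in R 4.3.3 (low counts removed with filterByExpr, TMM factors, robust quasi-likelihood F test on counts), each experiment apart with all its groups, and files were loaded with data.table (version 1.17.8). P-values were adjusted over all genes tested with the Benjamini-Hochberg method. Levels are CPM scaled by TMM factors within an experiment, n = 3 libraries per group. The 5 genes and all gene lists were chosen with earlier results of these data known. From each list, up to 4 called genes with the largest change per comparison could be named, some of which are left out for length or not reported here, and for likeness 3 genes per member with a mean of at least 1 CPM (prior count 2). Genes outside this rule, such as single markers, were chosen after their values were seen. Genes named without both untreated replicate 1 libraries follow the same calls in that fit. Promoters and start sites come from RefSeq on GRCm38.p6. The scripts were tested on simulated data.

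Alternatives were DESeq2 size factors, DESeq2 (version 1.42.0), no filter, only the 2 groups compared, all 27 libraries in 1 fit, a replicate block, leaving out each library in turn, and leaving out both untreated replicate 1 libraries.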

Additional observations from a re-analysis of the deposited data

How the results depend on the processing

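No bryostatin estimate of the 5 genes changed sign in the alternatives run, and 258 recomputed values stayed within the SD between replicates. Bbox1 with bryostatin alone moved to -1.83 without untreated replicate 1 of experiment 2. Under IL-4 alone the estimate of Slc24a4 turned from -0.32 to 0.031 without that library and also to 0.031 without both untreated libraries labelled replicate 1, within a range of -0.47 to 0.031 when single libraries were left out. The cause was not tested.

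Counts of genes called moved more than those estimates. DESeq2 called 1266 genes in place of 565 for bryostatin alone, 1101 in place of 644 with IL-4, 850 in place of 543 with LPS and IFN-gamma, and 213 in place of 91 for IL-4 against untreated. With only the 2 groups compared in the fit, 9 genes were called for bryostatin alone, 2703 for IL-4 with bryostatin, 3354 for LPS with bryostatin (in place of 1108) and 41 for IL-4. With all 27 libraries in 1 fit the counts were 1548 for bryostatin alone, 1325 for IL-4 with bryostatin and 224 for IL-4. Without both untreated replicate 1 libraries they were 1355 for IL-4 with bryostatin, 2148 for LPS with bryostatin and 1380 for LPS and IFN-gamma with bryostatin. The cause was not tested.

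Leaving out 1 library at a time gave 188 to 824 genes for bryostatin alone, 172 to 371 for IL-4 with bryostatin, 588 to 689 for LPS with bryostatin and 242 to 434 for LPS and IFN-gamma with bryostatin. It gave 66 to 96 for IL-4 against untreated, 5100 to 7032 for LPS, 8454 to 9997 for LPS and IFN-gamma against untreated, and 4631 to 5239 for LPS and IFN-gamma against LPS. No pairing by replicate number was used in the tests. Same-numbered libraries of the compared groups had deviations from their group means that correlated at -0.51 to 0.35. The correlations were all positive, but weak, for IL-4 with bryostatin against IL-4 (0.059 to 0.18) and for LPS against untreated (0.054 to 0.061). Such values do not settle whether the numbers pair the libraries. A fit with replicate number as a block called 422 genes for bryostatin alone, 564 for IL-4 with bryostatin, 963 for LPS with bryostatin, 464 for LPS and IFN-gamma with bryostatin, 94 for IL-4, 5935 for LPS, 9089 for LPS and IFN-gamma and 5555 for LPS and IFN-gamma against LPS. Slc24a4 with LPS lost its call without the filter (adjusted p = 0.109, edgeR) and with only its 2 groups (adjusted p = 0.154). Bbox1 from LPS to LPS with IFN-gamma lost its call without the filter (adjusted p = 0.101). Chil1 with IL-4 gained one with all 27 libraries in the fit (adjusted p = 0.0337). Bbox1 rests on as few as 5 counts in a library, which limits its precision.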
